A study of Pimephales promelas with 191 samples.

Results

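The genes described here are 100 liver genes of the fathead minnow. Averaged over 4 treatments, their messenger RNA stood lowest at 6 h and held nearly the same level at 24, 48 and 96 h. They were selected from the deposited gene counts, scaled by column total to CPM (counts per M counts, M for mega) and put on a log2(CPM + 0.1) scale. Of 26150 genes, 13268 had a median CPM between 1 and 500, and among these 5399 (40.7%) were lowest at 6 h when the 4 treatment means of each time were averaged. The gap of a gene is the lowest later mean minus the 6 h mean. A gene was kept if its later means differed among themselves by less than 50% of the gap, which left 535 genes (4.03%), and the 100 with the highest ratio of gap to pooled within-group standard deviation are the members. The difference between 6 h and the later times therefore chose the members and is given as a description without a test, whereas differences between treatments did not enter the choice and were tested.

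Adult male fathead minnows (Pimephales promelas), small freshwater fish used in aquatic toxicology, were kept as controls or exposed to 41 µg/L of metformin, to 100 µg/L of guanylurea, or to a mixture holding both compounds at these concentrations. Liver RNA was sequenced after 6, 24, 48 and 96 h, giving 16 groups of 12 libraries except guanylurea at 24 h with 11, in all 48 libraries at 6 h and 143 later. Metformin is a drug against type II diabetes that is excreted unchanged, and guanylurea is the product that microbes form from it in sewage works. Nothing in the labels ties a library to its own fish or tank. Every p-value therefore covers only the spread among these samples, part of which may be technical.

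The liver supplies the body with glucose, lipoproteins, plasma proteins and bile, and in male fish it can make egg yolk precursor when estrogens reach it. In vertebrate liver many transcripts follow the time of day and the time since feeding, and others follow stress hormones after handling. Metformin acts in mammalian liver on mitochondrial respiration and lowers glucose output. The labels give no clock times or feeding times. The later collections lie whole days apart from each other and 6 h does not, so hours of exposure, hour of the day and handling before collection cannot be told apart in a 6 h against later difference. In bulk liver, fewer cells of a type and less RNA per cell cannot be told apart either.

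The files do not pair the gene identifiers with names, and 0 of the 26150 identifiers matched the RefSeq gene table of this fish. No member could therefore be given a function, no liver marker could be checked and no sequence could be tied to a member. The 4 members the results turn on are given by identifier and the others by rank in the selection, with rank 1 the highest ratio of gap to standard deviation.

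Library totals ran from 12.7 M to 27.97 M counts with a median of 19.5 M, so a member at 1 CPM rested on 19.5 counts in the median library, and the members as a whole took 0.242% of counts on average. No library was at 0 in 96 of the 100 members, and how much counting error and spread between samples each add to a member's error was not tested. There were 9 libraries that agreed poorly with the rest of their group, 4 of them controls, 3 metformin and 2 mixture, and results are given without them where that changes a call. Group means of counts held by the 10 most abundant genes ran from 27.2% to 32.2%.

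The member of rank 1, FMg012992, stood at a median of 30.0 CPM over the 48 libraries at 6 h (lowest 18.01, highest 74.96). Its medians were 51.3 CPM at 24 h, 57.1 CPM at 48 h and 55.0 CPM at 96 h, and the 143 later libraries ran from 29.3 to 98.1 CPM. The level at 6 h was low and the later levels formed a plateau with overlapping ranges, and 45 of 48 libraries at 6 h lay below the median of the later ones. In controls the 12 libraries at 6 h ran from 24.5 to 74.96 CPM with a median of 30.5 CPM, against control medians of 51.7, 61.9 and 50.3 CPM at 24, 48 and 96 h. The metformin medians were 32.1 CPM at 6 h and 45.8, 50.6 and 55.8 CPM at the later times. The guanylurea medians were 35.2 CPM at 6 h, then 52.5, 59.2 and 61.3 CPM, and those of the mixture were 28.9 CPM, then 51.3, 53.2 and 55.2 CPM. In every treatment the 6 h group was the lowest of the 4 times, while single libraries of the 6 h groups reached into the later range. The gap of FMg012992 was 0.63 on the log2 scale, a 1.54-fold difference, with a pooled standard deviation of 0.33 within groups. Its lowest count in any library was 270, and 1 transcript row of the transcript table carried the same counts as the gene.

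**Figure D1:**
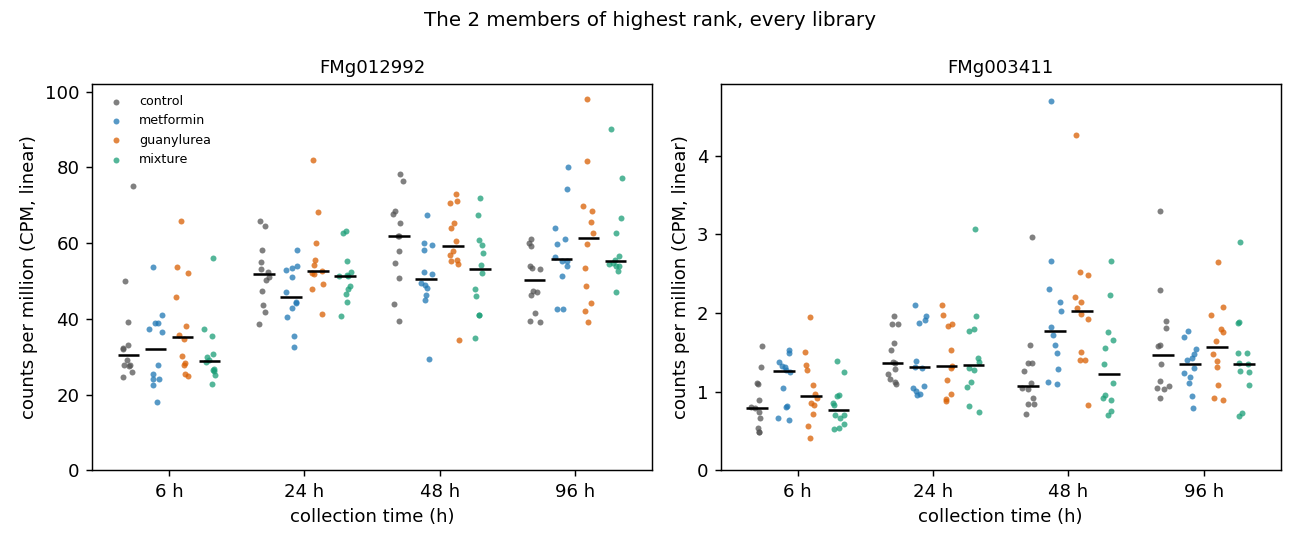
Level of FMg012992 (left) and FMg003411 (right) in every library, in CPM on linear axes starting at 0, by collection time and treatment; points are libraries and black bars group medians. For FMg012992 the 4 medians at 6 h sit between 28.9 and 35.2 CPM and every later median lies at or above 45.8 CPM. FMg003411, at about 1 CPM with wider relative spread, has its lowest median at 6 h within each treatment. Its metformin median at 6 h (1.26 CPM) lies above the 48 h medians of controls (1.08 CPM) and the mixture (1.22 CPM).

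The member of rank 2, FMg003411, had the same course at a far lower level. Its median was 0.875 CPM at 6 h (lowest 0.407, highest 1.94), and 1.33, 1.498 and 1.399 CPM at 24, 48 and 96 h. In controls the median went from 0.797 CPM at 6 h to 1.37, 1.08 and 1.47 CPM, with metformin from 1.26 to 1.31, 1.77 and 1.35 CPM, with guanylurea from 0.949 to 1.33, 2.02 and 1.56 CPM, and with the mixture from 0.765 to 1.34, 1.22 and 1.36 CPM. The 6 h group had the lowest median of the 4 times in each treatment, but metformin at 6 h differed little from metformin at 24 h. Its gap was 0.56, or 1.47-fold, and 42 of 48 libraries at 6 h were below the later median. The lowest count was 9, and the part of counting error in the spread of this member was not tested.

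The next members differed widely in abundance. Rank 3 had a median of 2.51 CPM at 6 h and 4.40 CPM over the later libraries, rank 4 had 0.968 and 1.84 CPM, and rank 5 had 2.90 and 4.69 CPM. These low transcripts had gaps of 0.62, 0.70 and 0.66 and within-group standard deviations of 0.60, 0.68 and 0.69. Rank 6 stood at 159 CPM at 6 h and 183 CPM later, and rank 7 at 165 and 202 CPM. Both were abundant transcripts with small gaps, 0.23 and 0.30, and they ranked high because their spread within groups was also small, 0.25 and 0.33. Rank 8 joined a high level with a large gap and a large spread: its median was 94.5 CPM at 6 h and 174 CPM later, and single libraries ran from 15.01 to 220 CPM at 6 h and from 35.7 to 475 CPM later. Rank 9 went from 12.5 to 14.7 CPM and rank 10 from 6.15 to 8.93 CPM. Among the first 10 members, between 37 and 45 of the 48 libraries at 6 h lay below the later median, so the 6 h and later libraries overlapped for each of them.

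Across the 100 members the gap had a median of 0.31 on the log2 scale, a 1.24-fold difference, and ran from 0.13 to 0.86, that is from 1.096-fold to 1.82-fold. The gap reached 0.5 in 12 members and 1 in none of the 100. The later means of a member differed among themselves by 0.096 in the median and by at most 0.294, in rank 8. The lowest of the later means was at 24 h for 54 members, at 48 h for 26 and at 96 h for 20. These are means over the 4 treatments, which the selection required to lie close. Within a treatment the later means could lie farther apart: in controls rank 3 had 1.84, 2.45 and 2.01 at 24, 48 and 96 h. Flatness within each treatment was not counted over the members. The members were not unusual in level or spread: their median level was 5.68 CPM (1.02 to 277) against 8.02 CPM for all genes in the range, 64 were below 10 CPM and 7 at or above 100 CPM, and their median within-group standard deviation was 0.48 against 0.49. A transcript row with counts identical to the gene was found for 58 members, against 66.2% of all genes in the range.

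The selection ended within a continuum. Ranks 98, 99 and 100 had ratios of gap to standard deviation of 0.566, 0.566 and 0.565, and the first 3 genes left out had 0.565, 0.564 and 0.562. Rank 1 stood apart at 1.92, rank 2 followed at 1.17 and rank 10 was at 0.88. The mirror pattern, highest at 6 h and level later, was found by the same steps in 342 genes, and 121 of those had a ratio at or above that of rank 100, the highest being 1.83. Genes lowest at 6 h thus had counterparts in the opposite direction with ratios of like size.

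**Figure D2:**
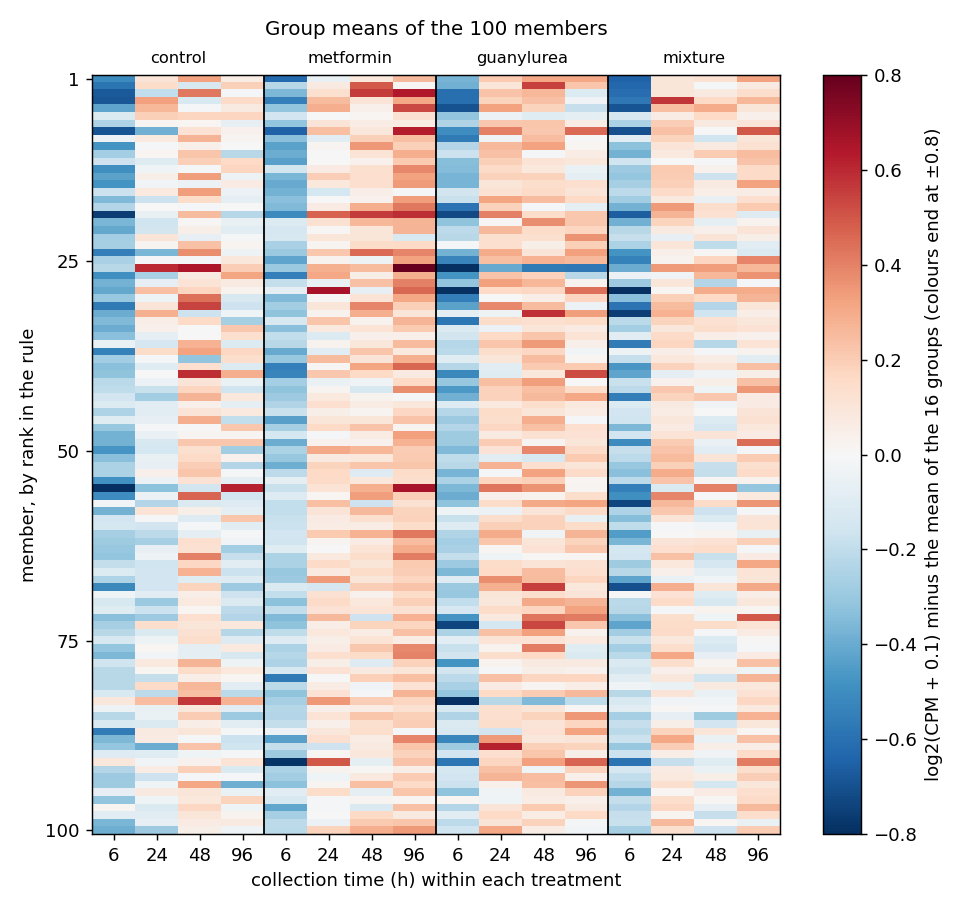
Group means of each member on the log2(CPM + 0.1) scale minus that member's mean over the 16 groups, 1 row per member in rank order and 1 column per treatment and time; blue is lower and red higher, with colours ending at ±0.8. The 6 h column is blue in each of the 4 treatment blocks for most members, and the row of rank 26 is blue in all 4 guanylurea columns.

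In each treatment 6 h was the lowest time for most members, which the selection on the mean of the 4 treatments favours. The 6 h mean was the lowest of the 4 times in all 4 treatments for 73 members, in 3 treatments for 25 and in 2 treatments for 2. By treatment it was the lowest for 81 members in controls, 99 with metformin, 97 with guanylurea and 94 in the mixture group. The share of all genes lowest at 6 h within each treatment is not given here, so these counts stand without a background. The rise, here the mean of the 3 later group means minus the 6 h mean, had a median over members of 0.30 in controls, 0.42 with metformin, 0.42 with guanylurea and 0.34 in the mixture group. It was above 0 for 95 members in controls and for 100 in each of the other treatments, and the 5 exceptions in controls were at least -0.13. All genes in the range moved too on this scale, with median rises of -0.04, 0.10, 0.13 and 0.03 in the same order. The rise was above 0 in 42.2%, 69.6%, 72.2% and 55.6% of all genes in the range. Scaling by TMM, which sets libraries level on the bulk of genes, moved the median of all genes by more than 0.1 with guanylurea and brought it to between 0.00 and 0.01 in every treatment. Under TMM the members' medians were 0.34 in controls, 0.33 with metformin, 0.30 with guanylurea and 0.31 in the mixture group, above 0 for 98, 100, 98 and 99 members. Relative to the mean of all genes, the members' mean rise was 0.35 in controls, 0.33 with metformin, 0.32 with guanylurea and 0.36 in the mixture group. The order of the treatments seen under column totals was thus not kept under TMM, and the direction of the rise was kept in both.

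**Figure D3:**
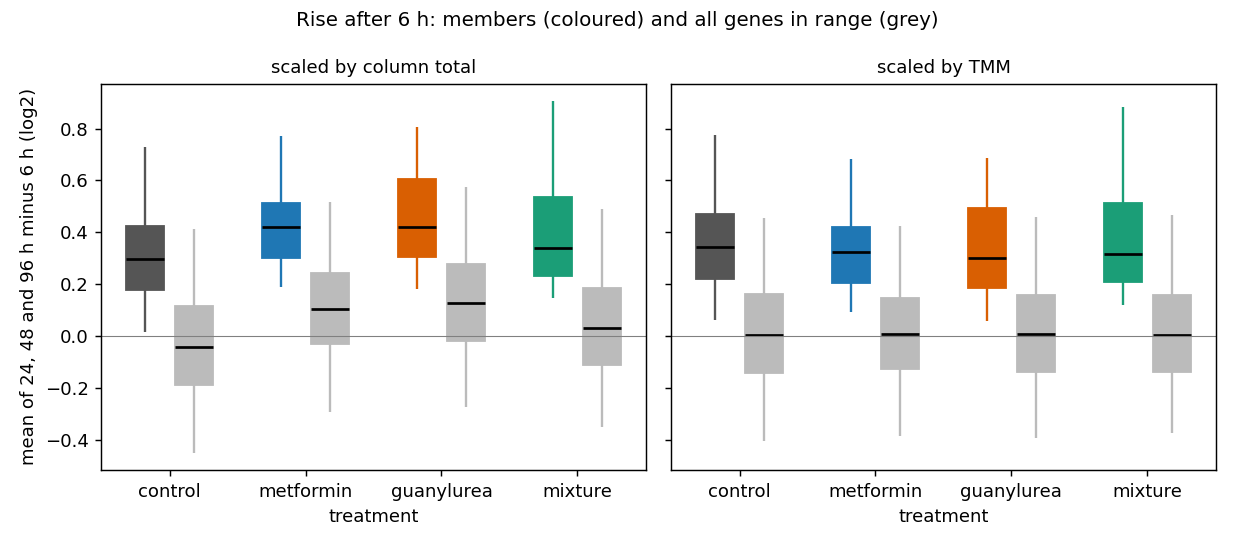
Rise after 6 h (mean of the 24, 48 and 96 h group means minus the 6 h mean, log2) over the 100 members (coloured) and over the 13268 genes in the abundance range (grey), scaled by column total (left) and by TMM (right). Black lines are medians, boxes the middle 50% of genes and thin lines the 5th to 95th percentiles; member medians lie between 0.30 and 0.42 at left and between 0.30 and 0.34 at right.

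Since each of the 4 treatments entered the selection, the selection was repeated with the libraries of 1 treatment left out and the 100 genes it returned were read in the treatment that had been left out. Their median rise was 0.19 in controls, 0.32 with metformin, 0.30 with guanylurea and 0.25 in the mixture group, and 84, 98, 94 and 96 of the 100 genes were above 0. The medians of all genes there were -0.04, 0.10, 0.13 and 0.03. In each treatment the rise read without its part in the choice was smaller than the median of 0.30, 0.42, 0.42 and 0.34 given for the members, and above that of all genes. The genes returned shared 52, 53, 49 and 53 of the 100 members.

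Library by library, the mean of the members relative to the mean of all genes in the range ran from -0.72 to 0.00 in the 48 libraries at 6 h, with a median of -0.21. It ran from -0.44 to 0.28 in the 143 later libraries, with a median of 0.10. All 48 libraries at 6 h lay below the later median and 115 of the 143 later libraries lay above every library at 6 h, while 8 of the 48 lay below every later one. The groups overlapped through a tail of later libraries with low values, 6 of which were below the 6 h median. The selection favoured genes that separate these same libraries, so these counts describe the members and are not a test. No such count over other genes is given here. At 6 h the group medians of this relative mean were -0.24 in controls, -0.14 with metformin, -0.26 with guanylurea and -0.24 in the mixture group. Without the step relative to all genes, 47 of 48 libraries at 6 h lay below the later median and 58 of 143 later libraries above all of them. The summed level of the members was 1949 CPM ± 302 (SD, n = 12) in controls at 6 h, against 2346 ± 305, 2555 ± 341 and 2402 ± 223 CPM at 24, 48 and 96 h (SD, n = 12 each).

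**Figure D4:**
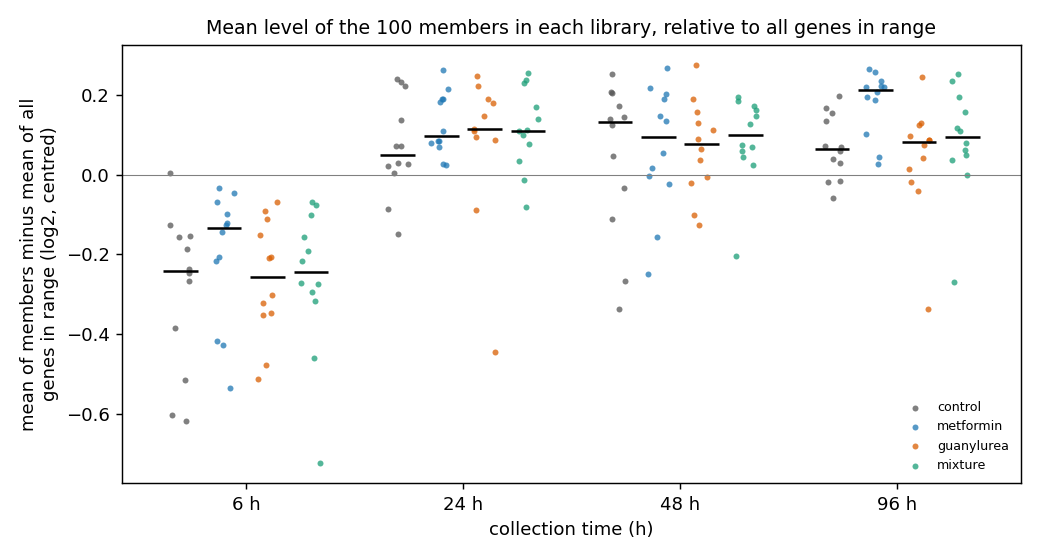
Mean of the 100 members minus the mean of all genes in the range in each library (log2, centred on all libraries), by collection time and treatment; points are libraries and black bars group medians. The highest of the 48 libraries at 6 h is at 0.0031, and most later libraries sit between 0 and 0.28, with a tail reaching -0.44.

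Within groups the members moved together only loosely. The correlation of 2 members over all libraries, after each group's mean was taken off, had a median of 0.21, against 0.12 between any 2 of the genes in the range. It was above 0 for 88.0% of the 4950 pairs of members and for 73.4% of all pairs, and above 0.5 for 5.80% and 5.78%. The leading component held 26.02% of the members' variation within groups, with 98 of the 100 members on one side. The members' mean in a library went with the mean of all genes in that library (r = 0.79) and against the share of counts held by the 10 most abundant genes (r = -0.49), and hardly with total counts (r = 0.13). These values share the same libraries and column totals and are descriptions, and the part of column scaling in them was not tested. The library farthest below its group was metformin at 48 h replicate 1, at -0.92, which is also among the 9 that agreed poorly with their groups.

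Whether exposure changed the size of the rise was tested with edgeR's quasi-likelihood test, as the rise with a treatment minus the rise in controls, over 18145 genes with Benjamini-Hochberg adjustment and a threshold of 0.05. No member passed in any of the 3 treatments. For metformin, 5 members beside 7.005% of all genes had an unadjusted p under 0.05. The count called was 0 of 100 members against 0.0827% of all genes, and 0 by DESeq2 and by limma. For guanylurea it was 0 against 0.0992%, with 10 members unadjusted beside 9.37% of all genes, and again 0 by both other tools. For the mixture it was 0 against 0%, with 4 members unadjusted beside 4.52% of all genes, and 0 by both. The median of these differences over members was -0.02 (metformin), -0.04 (guanylurea) and -0.03 (mixture), beside medians of 0.02, 0.01 and 0.01 over all genes. For 93, 90 and 93 members the 95% interval lay within 2-fold in either direction, and for 51, 49 and 52 members within 1.5-fold. For the remaining members a difference of 1.5-fold was not excluded. Over all genes the shares were 63.7%, 62.2% and 65.2% within 2-fold, and 36.1%, 34.7% and 38.8% within 1.5-fold. On simulated counts for guanylurea this test found 28.4% of genes with a 1.5-fold change, 56.7% with a 2-fold change and 89.4% with a 4-fold change. Of its 125 calls there, 9 were genes left unchanged, a share above the threshold of 0.05. The simulation drew each gene separately around a mean taken over all groups. It held no differences between times and no variation shared by genes, so its shares may not hold for the real counts.

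For FMg012992 the rise was 0.67 in controls, 0.72 with metformin, 0.65 with guanylurea and 0.83 in the mixture group as differences of group means. The fitted difference from controls was -0.09 ± 0.14 (SE) with metformin, -0.17 ± 0.14 with guanylurea and 0.11 ± 0.14 in the mixture group, each with an edgeR adjusted p of 0.745 or more. For FMg003411 the differences were -0.42 ± 0.24 (SE), -0.18 ± 0.24 and 0.03 ± 0.24, each with an edgeR adjusted p of 0.755 or more. The intervals of FMg012992 stayed between -0.45 and 0.39, and those of FMg003411 between -0.90 and 0.51.

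Treatment differences averaged over the 4 times touched few members. With metformin 0 members were called against 0.0882% of all genes, with 19 at an unadjusted p under 0.05 (10.9% of all genes) and 0 called by DESeq2 and by limma. The median difference over members was 0.07, beside -0.01 over all genes. The difference was above 0 for 72 members, beside 47.7% of all genes. Of the 19 members, 16 were higher with metformin, and the same split over all genes is not given here. Members share the same libraries and are not independent of each other, so these counts are not a test. The smallest adjusted p of a member by edgeR was 0.0939, at rank 16. With the mixture 0 members were called against 0.0386% of all genes, and 0 by DESeq2 and by limma. Unadjusted there were 4 members beside 6.21% of all genes, and the median was 0.04 beside -0.01. With guanylurea 4 members were called, all lower, against 1.3% of all genes called in either direction and 1.06% called lower, and 11 members were at an unadjusted p under 0.05 beside 13.3% of all genes. Without the low-agreement libraries rank 71 was called as well, and higher, by 0.17 on the log2 scale (edgeR adjusted p = 0.0246). The members as a whole did not follow those 4: their median with guanylurea was 0.02 beside -0.01 over all genes, and 60 of 100 were above 0 beside 47.9% of all genes. On simulated counts of the same kind, with genes drawn separately and no differences between times, this comparison recovered 85.1% of genes changed 1.5-fold and 97% of those changed 4-fold. Genes left unchanged made up 20 of the 201 calls it gave there, a share above the threshold of 0.05. Recovery in the real counts was not tested.

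FMg022542, rank 26, was the member of smallest p with guanylurea. In controls its median was 2.54 CPM at 6 h (0.439 to 8.37) and 5.56, 6.00 and 3.77 CPM at 24, 48 and 96 h. With guanylurea the median was 1.69 CPM at 6 h (0 to 3.21, with 1 library at a count of 0) and 2.49, 2.25 and 2.15 CPM later. The guanylurea libraries were low at every time and overlapped the controls, with 8 of 12, 10 of 11, 12 of 12 and 10 of 12 below the control median of the same time. Averaged over times it fell by 1.08 ± 0.19 (SE) on the log2 scale with guanylurea, 2.12-fold lower, with an edgeR adjusted p of 7.42e-05. The 4 single times gave -0.96 ± 0.48, -1.16 ± 0.34, -1.42 ± 0.30 and -0.80 ± 0.32 (SE), none of which passed adjustment over all genes, with edgeR adjusted p-values of 0.0965 or more. With metformin the average difference was -0.11 ± 0.18 (SE, edgeR adjusted p = 0.887) and with the mixture, which holds the same dose of guanylurea, -0.21 ± 0.18 (SE, edgeR adjusted p = 0.968). The difference between guanylurea and the mixture was not tested. The rise after 6 h in this member was 0.70 in controls and 0.75 with guanylurea as differences of group means by column total. The library at a count of 0 is part of the guanylurea mean at 6 h. The fitted difference in rise, which used TMM, was -0.16 ± 0.43 (SE, edgeR adjusted p = 0.950). The lower level and the 6 h minimum thus stood side by side.

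FMg015242, rank 83, showed the same direction at a lower level. Its control medians were 2.18 CPM at 6 h (1.15 to 4.96) and 2.41, 3.18 and 2.43 CPM at 24, 48 and 96 h. With guanylurea they were 1.14 CPM at 6 h (0.541 to 2.77) and 1.87, 1.88 and 1.86 CPM. Again the guanylurea libraries were low at each time within overlapping ranges, with 11 of 12, 9 of 11, 11 of 12 and 10 of 12 below the control median. The average difference was -0.74 ± 0.13 (SE), 1.67-fold lower, with an edgeR adjusted p of 0.000134. With metformin it was -0.13 ± 0.13 (SE, edgeR adjusted p = 0.767) and with the mixture -0.29 ± 0.13 (SE, edgeR adjusted p = 0.682). Its lowest count in any library was 6.

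**Figure D5:**
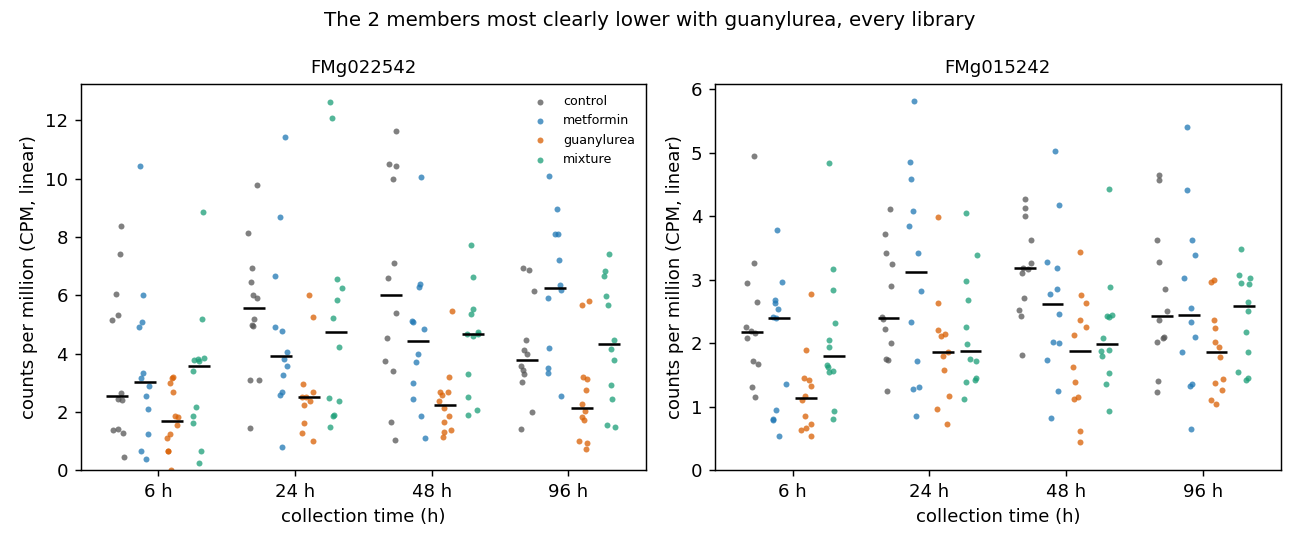
Level of FMg022542 (left) and FMg015242 (right) in every library, in CPM on linear axes starting at 0, by collection time and treatment; points are libraries and black bars group medians. The guanylurea medians are the lowest of the 4 treatments at each time in both panels, and guanylurea libraries overlap control libraries at all times.

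The other 2 members called were abundant or moderately abundant transcripts with small differences. Rank 6 had control medians of 159, 207, 206 and 205 CPM and guanylurea medians of 138, 161, 171 and 174 CPM at 6, 24, 48 and 96 h. Its average difference was -0.30 ± 0.066 (SE, edgeR adjusted p = 0.00405), with 8 of 12, 8 of 11, 11 of 12 and 11 of 12 guanylurea libraries below the control median. Without the 96 h libraries its adjusted p by edgeR was 0.0990. Rank 9 had a control median of 14.7 CPM and a guanylurea median of 10.6 CPM at 6 h, where 12 of 12 guanylurea libraries were below the control median. For this member 11 of 12 metformin and 8 of 12 mixture libraries were also below the control median at 6 h. At 24, 48 and 96 h its medians were 13.6, 18.1 and 13.9 CPM in controls and 14.1, 16.2 and 14.4 CPM with guanylurea, and 4 of 11, 8 of 12 and 5 of 12 libraries were below. These later differences depended on the scaling: the difference of group means was -0.11, -0.03 and -0.02 on the log2 scale by column total and -0.28, -0.04 and -0.20 by TMM, which the test used. Its average difference was -0.25 ± 0.061 (SE, edgeR adjusted p = 0.0130), and the call was lost without the 6 h libraries (edgeR adjusted p = 0.136) and without the 24 h libraries (edgeR adjusted p = 0.129). Ranks 26 and 83 stayed called by edgeR without the libraries of any 1 time. All 4 members were lower with guanylurea on average under both column totals and TMM. With metformin the average difference was -0.14 ± 0.065 (SE, edgeR adjusted p = 0.388) for rank 6 and -0.12 ± 0.061 (SE, edgeR adjusted p = 0.431) for rank 9. With the mixture it was -0.093 ± 0.065 (SE, edgeR adjusted p = 0.945) and -0.096 ± 0.061 (SE, edgeR adjusted p = 0.907). Whether guanylurea differed from the other exposures in these members was not tested.

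At single times the members showed hardly any calls. The members were at their lowest at 6 h. There edgeR called 0 of the 100 members with metformin, guanylurea and the mixture, beside 0% of all genes in each. At an unadjusted p under 0.05 by edgeR were 6, 8 and 4 members, beside 5.77%, 5.95% and 3.54% of all genes. DESeq2 and limma called 0. At 24 h the counts were 0, 0 and 0 beside 0%, 0.0122% and 0% of all genes, and 0 by both other tools. Unadjusted there were 13, 12 and 4 members beside 7.26%, 8.47% and 3.33% of all genes. At 48 h the called members were 0, 0 and 0 beside 0%, 0.012% and 0.012%, with 7, 11 and 8 members unadjusted beside 5.62%, 6.14% and 8.38%. The other tools also called 0 except DESeq2 with guanylurea, which called 1. At 96 h metformin had 0 called members beside 0% (13 unadjusted beside 8.17% of all genes). The mixture had 0 beside 0.158% (7 unadjusted beside 10.01%), with 0 by DESeq2 and by limma in both.

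Guanylurea at 96 h was the comparison with the most calls over all genes, 2.79% in either direction and 0.761% higher. There 1 member was called, higher, a share near that background. This member, rank 71, had control medians of 94.5, 94.7, 108 and 83.3 CPM at 6, 24, 48 and 96 h, with 63.3 to 113 CPM in the 12 control libraries at 96 h. The guanylurea libraries at 96 h ran from 89.0 to 195 CPM with a median of 125 CPM, overlapping the controls, and all 12 lay above the control median. So did 12 of 12 mixture libraries and 11 of 12 metformin libraries, on column totals under which the 96 h controls were also low over all genes, at -0.09 relative to all libraries. By column total the difference of group means with guanylurea was 0.53 on the log2 scale and by TMM 0.36. By edgeR, which used TMM, it rose by 0.37 ± 0.10 (SE) on the log2 scale with an edgeR adjusted p of 0.0383. The call was lost with limma, at 0.30 ± 0.092 (SE) and an adjusted p of 0.0839, and kept with DESeq2, at an adjusted p of 0.0180. It also rested on single libraries: the adjusted p by edgeR ran from 0.0210 to 0.0976 when 1 control or guanylurea library was left out, and was above 0.05 without control replicate 1 or 2 or guanylurea replicate 1, 6, 7, 8 or 11. Without control replicates 2 and 4 no member and 33 genes in all were called, and rank 71 had an edgeR adjusted p of 0.118. This pair was taken after the data were seen. Left out alone, replicates 2 and 4 gave 202 and 221 calls over all genes, the fewest of any control at 96 h. The fit without the pair is therefore not a neutral check. By column total rank 71 had no rise after 6 h in controls, at -0.03, against 0.32 with metformin, 0.35 with guanylurea and 0.23 in the mixture group. Its difference in rise from controls did not pass in any treatment, with edgeR adjusted p-values of 0.560 or more.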

How the data were processed

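The authors deposited expected counts per gene and per transcript, estimated per library and given as whole numbers (0 values were not whole), with no scaling for depth. The submitters' processing notes name RSEM 1.3.1, Bowtie2 2.3.5 and bcl2fastq 1.8.4. RSEM divides reads that match several genes between them, which leaves the counts of near-identical copies uncertain. Genome build: not given in the sources used here, nor the annotation or the strand setting. Libraries were made with a stranded mRNA kit from total RNA, per the labels' protocols. All columns matched 1 library title each and were used, with groups taken from the labels' treatment field. The 26150 gene and 47578 transcript identifiers were compared with 64593 RefSeq genes (assembly fPimPro1.hap1.1), and 0 matched.

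Members were selected in Python 3.11.15 on log2(CPM + 0.1), with CPM by column total, as given above. The members, lists and tests were chosen with earlier results of these data known. Treatment tests used the counts, rounded to whole numbers, in edgeR 4.0.16 under R 4.3.3: filterByExpr (minimum count 10, minimum total 15), TMM, a robust quasi-likelihood fit with a mean per group, and Benjamini-Hochberg adjustment over the genes tested at a threshold of 0.05. Averages over times and differences in rise used the libraries of all times; single times used the libraries of that time. The test was checked on simulated data with genes changed 1.5-fold, 2-fold and 4-fold, each gene drawn separately around a mean taken over all groups. The rule for named genes, with no names matched, prints 4 identifiers: the 2 members of highest rank and the 2 of smallest p among those lower with guanylurea; ranks 6, 9 and 71 are described because they were called.

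Alternatives were limma 3.58.1 (voom, sample quality weights), DESeq2 1.42.0, its size factors within edgeR, dropping the low-count filter, a block for the replicate number, single times taken from the fit of all times, and dropping 9 libraries of low agreement. Agreement was a library's median correlation with others of its group on log2 CPM, and low meant over 5 median absolute deviations under the overall median. For the selection they were log2(CPM + 1), TMM, group medians, a range of 5 to 500 CPM, and leaving out each treatment. Leaving out each time, and each 96 h control or guanylurea library, was added after seeing the data. Sequences, gene names and marker lists were not used here.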

Additional observations from a re-analysis of the deposited data

How the results depend on the processing

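Which genes are members depended on the settings of the selection, as did the flatness of their later levels. The 100 genes selected shared 91 members with log2(CPM + 1), 66 under TMM, 62 without the low-agreement libraries, 48 with group medians, 51 with a range of 5 to 500 CPM, and 52, 53, 49 and 53 without the control, metformin, guanylurea or mixture libraries. Of the members, 99 or 100 remained lowest at 6 h in the mean under each of these settings except the range of 5 to 500 CPM, where this was not counted, and 56 to 92 of them passed the flatness step. The selection required both traits, and each setting reuses most or all of the same libraries. These counts therefore describe the members and are not a test. Over log2(CPM + 1), TMM and leaving out the low-agreement libraries, the members' median rise ran from 0.23 to 0.36 in controls (0.30 as reported), from 0.33 to 0.46 with metformin (0.42), from 0.30 to 0.42 with guanylurea (0.42) and from 0.27 to 0.37 with the mixture (0.34). Members called with guanylurea averaged over times numbered 4 by edgeR as reported, 4 with DESeq2, limma, DESeq2 size factors and no filter, 5 without the low-agreement libraries, and 4, 3, 4 and 3 without the 6, 24, 48 and 96 h libraries. Genes called in all by edgeR numbered 236 as reported, and 216, 136, 169 and 95 without the libraries of those times. The 4 members called without the 6 h libraries were not the same 4 as reported, since rank 9 was lost there (edgeR adjusted p = 0.136). With guanylurea at 48 h, where 0 members were called, DESeq2 called 1 and edgeR without the low-agreement libraries called 1. With guanylurea at 96 h, where 1 was called, one fit of all libraries called 5, DESeq2 4, no low-count filter 2, the fit without low-agreement libraries 2, limma 1 (not rank 71), DESeq2 size factors 1 and the fit without control replicates 2 and 4 called 0. Leaving out 1 library at a time gave 0 to 6 members, beside 202 to 811 genes called in all, and the 6 came with the 811. The share of all genes called with the other tools, fits and filters is not given here. Those member counts therefore stand without a background. With the mixture at 96 h one fit of all libraries called 1 in place of 0. For the moves between settings the cause was not tested.

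The same replicate numbers occur in all groups, and nothing in the labels ties the numbers together. Over 1425 pairs of libraries that share a number the correlation of deviations had a median of 0.014 and ran from -0.36 to 0.58, with 26.4% over 0.1, beside a median of -0.0064 for different numbers. As not every pair was over 0.1, the numbers were not taken to pair the libraries, and 26 libraries in all correlated best with one of their own number. That criterion cannot exclude an effect shared by libraries of the same number, and such an effect was not tested. How many best partners would share a number without any pairing was not worked out. With the replicate number as a block, 0 members were called with guanylurea at 96 h (12 genes in all, in place of 458; rank 71 had an edgeR adjusted p of 0.112) and 4 averaged over times; all other member counts stayed at 0. Depth limits the members near 1 CPM, where a library holds few counts.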
